A study of Drosophila melanogaster with 31 samples.

Results

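The gap genes hunchback (hb), Kruppel (Kr), knirps (kni), giant (gt), tailless (tll) and huckebein (hkb) were followed through ATAC-seq peak lists of Drosophila melanogaster embryos with and without the transcription factor Grainy head (Grh). Each gene was taken with 10 kb on either side of its annotated body in dm6, and every peak summit inside that window was kept. The 12 conditions gave 19 peak lists, which held 1473 summits in the 6 windows. Summits of different lists were gathered into regions reaching 150 bp to either side of a centre, and the windows held 113 of the 57479 regions of the genome. Of these, hb had 32, Kr 14, kni 14, gt 18, tll 17 and hkb 18. These took in 1272 of the summits, and the strongest of the rest ranked 20213 in its list.

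Gap genes are among the first zygotic genes to divide the head-to-tail axis of the fly embryo. Maternal gradients such as Bicoid (Bcd) and Caudal (Cad) switch them on in broad domains, signalling at the poles relieves Capicua (Cic) repression of the terminal genes tll and hkb, and the gap proteins then repress one another. Their expression is set by separate enhancers around each gene, many of which are opened early by the pioneer factor Zelda (Zld).

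The study asked whether Grh, a pioneer factor of epithelia, is needed to open chromatin in the early embryo. Embryos lacking maternal Grh (grhM-, from mothers with germline clones of the null allele grhB37) were set against grhM+ siblings. Embryos lacking maternal and zygotic Grh (grhM-Z-, homozygous for grhB37) were set against grhM+Z+ siblings, which the paper calls wild-type. Each of these pairs was taken at stage 5 and stage 6. Embryos lacking only zygotic Grh (grhB37/B37) were compared with grhB37/+ siblings at stage 6 and at 11-12 h after egg laying. Stage 5 is the cellular blastoderm and stage 6 the start of gastrulation, and the early libraries came from single embryos. There were 3 libraries in each early condition except for 2 of grhM+Z+ at stage 6. At 11-12 h there was 1 library of pooled embryos per genotype, so nothing could be tested at that age. The grhB37/+ controls, which the paper also calls wild-type, carried 1 mutant copy of grh. A legend of the paper calls the siblings of the maternal pair heterozygous. How many mutant copies the grhM-, grhM+ and grhM+Z+ embryos carried is not in the labels.

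Lists were deposited for single embryos in the maternal and zygotic experiment and for pooled replicates elsewhere, and they held 12001 to 106497 summits. The median background at a summit, which follows depth, lay between 2.56 and 15.8 fragments. Because the deposited statistics grow with depth, strength is given as the rank of a summit within its list by −log10 q, with rank 1 the strongest. A region without a summit among the strongest 20000 of a list was set to 20000, and the values of several lists are geometric means. Start sites of the muscle gene Mhc and the cuticle gene Osi6 were within the strongest 20000 only at 11-12 h, at ranks 4994 and 8080 for Mhc and 1198 and 3796 for Osi6 in grhB37/B37 and grhB37/+. The neural genes elav and repo and the epithelial gene Fas3 were ranked in every early condition, and Cpr49Ah had no region. At 11-12 h elav and Fas3 were ranked in both genotypes. The start site of repo ranked 43 to 1461 in the early conditions, but at 11-12 h it ranked 3358 in grhB37/+ and was not ranked in grhB37/B37.

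The sequences below were chosen because the stage comparison turned on them. Each is the 151 bases around the centre of a region, from the plus strand of the dm6 reference genome in RefSeq. A region is called by its gene and by the distance in bp of its centre from the annotated 5′ end of that gene, with minus for upstream. Capitals mark exact matches, on either strand, to any of 12 strings: CAGGTAG for Zld, GGATTA for Bcd, TTTTATG for Cad, TGAATGAA for Cic, CAAAAAA for Hb, AAGGGTT for Kr, TAGAGCA for Kni, TTACGTAA for Gt, AAGTCAA for Tll, ACAAAGG for Dichaete (D), GAGAGAG for GAGA factor (GAF), and AACCGGTT or AACTGGTT for Grh. The start site that lost rank at hb (chr3R:8694602-8694752) held a Zld and a Bcd string, and the one that gained rank (chr3R:8697877-8698027) held Hb, D and GAF strings.
hb +3145: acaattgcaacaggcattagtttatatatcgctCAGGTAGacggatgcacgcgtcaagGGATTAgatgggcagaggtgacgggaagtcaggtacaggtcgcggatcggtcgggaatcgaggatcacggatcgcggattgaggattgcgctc
hb -130: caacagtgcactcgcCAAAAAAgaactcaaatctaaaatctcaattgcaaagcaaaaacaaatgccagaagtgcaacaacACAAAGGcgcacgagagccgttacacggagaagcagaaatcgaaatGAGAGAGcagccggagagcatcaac
The next 4 are regions upstream of hb, gt, tll and hkb that lost rank by stage 6 (chr3R:8700827-8700977, chrX:2430706-2430856, chr3R:30850008-30850158 and chr3R:4348403-4348553).
hb -3080: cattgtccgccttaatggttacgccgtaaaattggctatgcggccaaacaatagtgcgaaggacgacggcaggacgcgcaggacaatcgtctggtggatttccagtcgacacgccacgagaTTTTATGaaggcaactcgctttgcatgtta
gt -1814: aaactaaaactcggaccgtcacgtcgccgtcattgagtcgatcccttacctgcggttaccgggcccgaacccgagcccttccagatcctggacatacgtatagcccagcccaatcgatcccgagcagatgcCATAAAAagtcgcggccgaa
tll -2232: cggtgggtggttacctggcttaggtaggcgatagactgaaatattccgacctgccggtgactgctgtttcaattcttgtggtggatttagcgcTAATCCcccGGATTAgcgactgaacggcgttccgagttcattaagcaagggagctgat
hkb -1832: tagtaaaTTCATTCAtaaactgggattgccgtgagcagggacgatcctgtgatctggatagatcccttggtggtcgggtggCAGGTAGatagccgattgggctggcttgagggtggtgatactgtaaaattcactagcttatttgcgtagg
The last pair, at kni, gained rank by stage 6 at the start site (chr3L:20695551-20695701) and downstream of the gene (chr3L:20687816-20687966).
kni -248: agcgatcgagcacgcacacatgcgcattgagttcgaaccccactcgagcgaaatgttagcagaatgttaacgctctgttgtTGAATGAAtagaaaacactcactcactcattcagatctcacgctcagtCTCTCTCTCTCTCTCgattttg
kni +7487: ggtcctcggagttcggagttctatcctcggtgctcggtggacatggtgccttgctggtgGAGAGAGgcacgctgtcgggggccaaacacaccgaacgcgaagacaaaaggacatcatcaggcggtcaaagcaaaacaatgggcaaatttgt

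Between stage 6 and stage 5 the called distal regions upstream of the gap genes were weaker with 1 exception, those downstream went both ways, and the start sites of Kr, gt, tll and hkb were not called and those of hb and kni were. The 6 stage 6 conditions were compared with the 4 stage 5 conditions by an exact two-sided permutation test on log2 rank, with Benjamini-Hochberg adjustment over the 26955 regions that ranked in at least 3 of the 10 early conditions. A region was called at an adjusted p under 0.05. Of the 113 regions, 67 met the condition for testing, 38 were ranked in only 1 or 2 early conditions, and 8 only at 11-12 h. Of the 67 tested, 9 were stronger at stage 6, against 10.1% of all regions tested, and 22 were weaker, against 12.5%. The remaining 36 were not called. Neighbouring regions overlap, so the 22 weaker regions make 15 separate stretches of DNA and the 9 stronger ones 8. The median difference was 0.31 on the log2 rank scale, where a positive value is a weaker region at stage 6, against -0.01 over all regions. Since a region passes the filter when it is ranked at either stage, these counts are read against the same filter genome-wide.

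Of the 51 tested regions over 500 bp from any start site, 6 were stronger and 19 weaker, beside 1527 and 2389 of 15265 such regions in the genome, or 15.7% weaker. Upstream of the 5′ ends 17 were weaker and 1 stronger out of 33 tested, beside 14.1% and 11.6% when the same windows are laid around every protein-coding gene. Downstream 2 were weaker and 5 stronger out of 18, beside 14.8% and 9.97%. Those genome shares count a region once for every gene window that holds it. The split by side was not among the planned comparisons, and some of the weaker upstream regions overlap. Of 13 tested regions at the genes' own start sites, 3 were stronger and 3 weaker, beside 10.2% and 8.37% of start-site regions in the genome. The 3 weaker ones are neighbours at the downstream start site of hb, and with them the called regions downstream of a 5′ end split into 5 weaker and 5 stronger. In all 31 called regions the stage 6 and stage 5 ranks did not overlap. Only such a split gives the smallest p of the test, so this adds nothing to the calls. The zygotic experiment had early lists at stage 6 only. With 210 arrangements the smallest p is 0.00476, or 0.0262 after adjustment, and 30 of the calls reached it. The exception was hkb +6248 (adjusted p = 0.0419, exact permutation). Ranking by fold enrichment in place of −log10 q left 13 calls, 4 stronger and 9 weaker. With only the 11 embryos that had a list each, an alternative chosen after seeing the data, the balance turned to 9 stronger and 7 weaker, beside 889 weaker of 2939 calls in the genome. Leaving out the list of grhM-, grhM+ or grhM-Z- at stage 5 left 0 calls, with fewer arrangements.

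**Figure D1:**
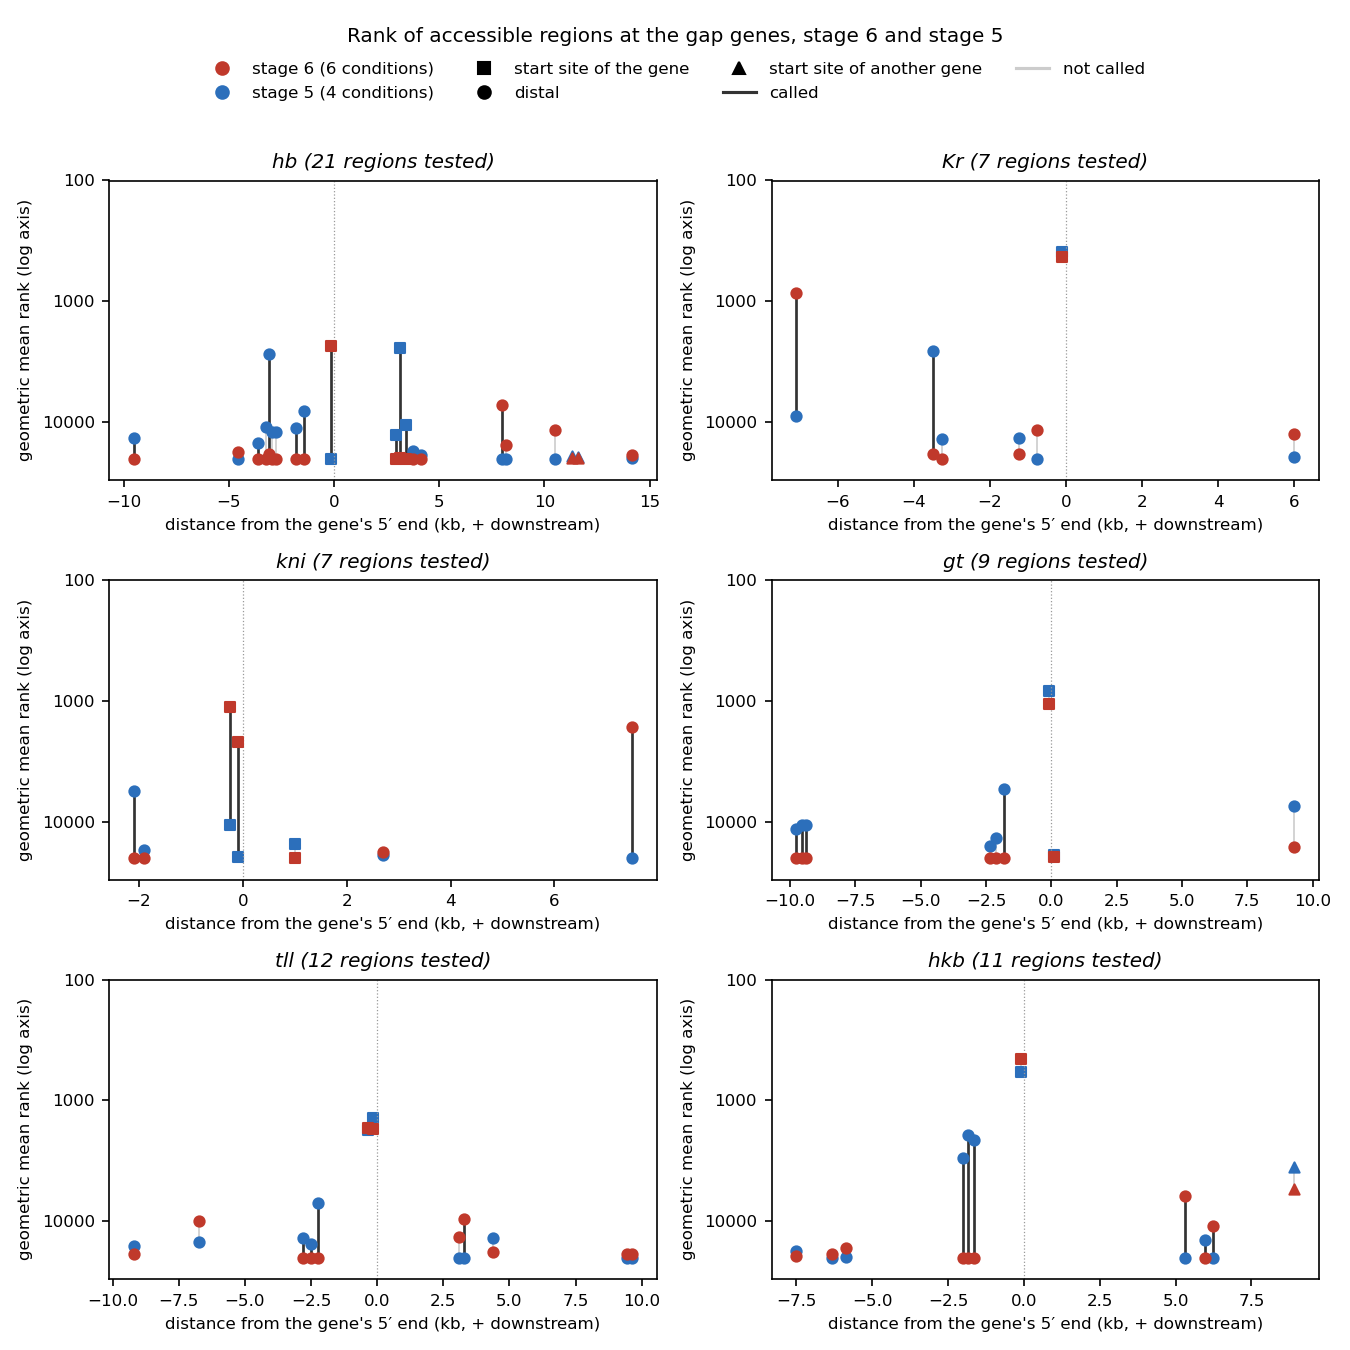
Geometric mean rank (log axis, strongest at the top, 20000 where a region was not ranked) of the 67 tested regions against distance from the 5′ end of each gene. Red marks stage 6 (6 conditions) and blue stage 5 (4 conditions). Dark lines join the 31 called regions. The blue points stand above the red ones in most regions upstream of hb, gt and hkb, while the start sites of Kr, gt, tll and hkb kept both near the top.

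hb encodes a zinc finger protein that activates and represses other gap genes, and it lies on the minus strand at chr3R:8690980-8697822 with 2 annotated start sites. The upstream one serves the maternal transcript and later zygotic expression, and the downstream one the early anterior domain driven by Bcd. The downstream start site, hb +3145, was chosen for naming after its values were seen. Its rank at stage 6 was 18901 at the strongest and 20000 in the median and the weakest condition. At stage 5 it ranked 3705 in grhM-, 594 in grhM+, 4878 in grhM-Z- and 3237 in grhM+Z+. Every stage 5 condition stood above every stage 6 condition, and the geometric means of 19812 at stage 6 and 2428 at stage 5 differed by 3.03 on the log2 scale (SD 0.03 among 6 and 1.38 among 4 conditions). The peak that held this summit had a median width of 133 bp in the 7 stage 6 lists that had one, and of 1286.5 bp in the 8 stage 5 lists. Its neighbours hb +2965 and hb +3405 were also weaker, by 0.66 and 0.93.

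The upstream start site of hb changed the other way. At hb -130 the stage 6 conditions ranked from 1570 to 3880 with a median of 2309, and no stage 5 list had a summit there. The difference was -3.09, with a median fold enrichment at stage 6 of 6.58 over local background and a median width of 455 bp. With summits ranked by fold the difference was -1.15 and was no longer called (adjusted p = 0.053, exact permutation). It was also kept at 11-12 h, at rank 2778 in grhB37/B37 and 4015 in grhB37/+.

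The distal regions of hb lay on both sides of its 5′ end, and 6 of the 15 tested were weaker and 1 stronger. With the start-site regions, 9 of its 21 tested regions were weaker and 2 stronger. The strongest distal region, hb -3080, ranked from 15796 to 20000 at stage 6 with a median of 19005. At stage 5 it ranked 2744 in grhM-, 3216 in grhM+, 3241 in grhM-Z- and 1968 in grhM+Z+. The difference was 2.75. hb -1406, which held 4 Bcd and 2 Zld strings, was absent from the strongest 20000 in every stage 6 condition and had a geometric mean rank of 7987 at stage 5. Among the regions that gained rank was hb +7994, beyond the 3′ end. It ranked from 5591 to 9477 at stage 6 and was not ranked at stage 5 (difference -1.49). By fold hb +7994 differed by -0.43 and was not called (adjusted p = 0.169, exact permutation). Neither hb -3080, hb -1406 nor hb +7994 was ranked at 11-12 h.

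Kr, a zinc finger repressor of the central domain, lies on the plus strand inside an intron of CG9380. Its start site was open in every list. At Kr -92 the stage 6 conditions ranked from 126 to 1173 with a median of 530, and the stage 5 ranks were 79 in grhM-, 491 in grhM+, 754 in grhM-Z- and 778 in grhM+Z+. The stages overlapped and the difference of 0.14 was not called (adjusted p = 0.919, exact permutation). At 11-12 h it was lower but present, at 4674 in grhB37/B37 and 4583 in grhB37/+.

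The distal regions of Kr exchanged places. Kr -7087 ranked from 197 to 1417 at stage 6 with a median of 1077, and at stage 5 it ranked 8401 in grhM-, 9028 in grhM+, 11098 in grhM-Z- and 7205 in grhM+Z+. The gain of 3.37 on the log2 scale (difference -3.37) was beyond the SDs of 1.06 among stage 6 and 0.26 among stage 5 conditions. Its median fold enrichment was 10.2 at stage 6 and 4.10 at stage 5, with median peak widths of 488 and 256.5 bp. Kr -3493 moved the opposite way. It ranked from 16013 to 20000 at stage 6, against 2679 in grhM-, 733 in grhM+, 3849 in grhM-Z- and 5678 in grhM+Z+ at stage 5 (difference 2.83), and it held 2 Zld strings. Kr -756 was ranked only from stage 6 on, with a geometric mean of 11482, but was not called (adjusted p = 0.0819, exact permutation), and at 11-12 h it ranked 5834 in grhB37/+ alone. Kr lies on chromosome 2, as does grh. For stage 6 grhB37/B37 embryos the paper took apparent losses there as false positives. It held that the grhB37 chromosome had likely gathered mutations that hindered read mapping. Whether this touches the ranks at Kr was not tested.

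kni encodes a repressor of the nuclear receptor family that acts in the abdomen, and it lies on the minus strand at chr3L:20692330-20695378. Among the 6 genes it had the highest count of regions stronger at stage 6, 3 of 7 tested, with 1 weaker. Of those 3, kni -248 and kni -90 overlap, and hb and hkb had 2 stronger regions each. By separate stretches kni therefore does not stand out. Both tested regions before its upstream start site gained rank. kni -248 ranked from 551 to 2210 at stage 6 with a median of 1027, and at stage 5 it ranked 6951 in grhM-, 20000 in grhM+, 10439 in grhM-Z- and 8937 in grhM+Z+. The difference was -3.25, with SDs of 0.73 and 0.65 among the conditions of the stages. kni -90, next to it and under the same peak in some lists, had geometric mean ranks of 2180 at stage 6 and 19413 at stage 5.

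kni +7487 had the lowest difference of the 67 regions tested, though gains from the limit of 20000 are lower bounds and by fold that of Kr -7087 was lower (-2.59, against -2.38 at kni +7487). It ranked from 1268 to 2405 at stage 6, where the median peak was 455 bp wide at a fold enrichment of 8.80, and none of the stage 5 lists had a summit in it (difference -3.62). The upstream region kni -2089 lost rank instead. It was not ranked in any stage 6 condition and ranked 7476 in grhM-, 1831 in grhM+, 5564 in grhM-Z- and 12922 in grhM+Z+ at stage 5 (difference 1.84). Summits in it were still listed in 2 stage 6 lists, at a median rank of 55352 and a median fold enrichment of 1.95. By fold kni -2089 differed by 0.33 and was not called (adjusted p = 0.104, exact permutation). kni +2701, in the 3′ UTR, was ranked weakly at both stages and was not called (difference -0.08). At 11-12 h the start site kni -248 was among the strongest of the gap gene regions, at 1615 in grhB37/B37 and 285 in grhB37/+, while kni +7487 was not ranked.

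gt encodes a bZIP repressor with an anterior and a posterior domain, and it is X-linked, on the minus strand at chrX:2427113-2428967. Of its 9 tested regions 4 were weaker and 0 stronger at stage 6. The start site, gt -94, ranked from 534 to 2812 at stage 6 with a median of 1003, and at stage 5 it ranked 758 in grhM-, 893 in grhM+, 711 in grhM-Z- and 974 in grhM+Z+ (difference 0.37, not called). gt -1814 was not ranked in any stage 6 condition, where no list had a summit in it. At stage 5 it ranked 4862 in grhM-, 2288 in grhM+, 8318 in grhM-Z- and 9041 in grhM+Z+, a difference of 1.89. The whole region held 3 Bcd strings.

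The other gt regions that lost rank were 3 neighbours near the edge of the window, gt -9756, gt -9540 and gt -9373, with differences of 0.80, 0.92 and 0.92. They overlap in part and share bases. gt -2363, which had the smallest loss among the distal regions of gt, and gt +9292, the second strongest distal region, were not called, with differences of 0.33 and 1.14. gt +9292 was ranked at 11-12 h only in grhB37/+, at 7327.

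The rank of gt -94 also moved with the share of an embryo's summits that lay on the X chromosome. In 6 of the 11 single embryos that share was 19.2% to 19.8%, and gt -94 ranked from 89 to 1062 with a median of 415. In the other 5 it was 15.7% to 16.3%, and gt -94 ranked from 1565 to 3601 with a median of 2581. The ranges did not overlap, whereas those of the start sites of hb, Kr, kni, tll and hkb, all autosomal, overlapped between the same embryos. The grouping itself rests on X-linked summits and other X-linked regions were not compared, so the shift cannot be called particular to gt -94. The embryos' sex is not in the labels, the grouping was made after the data were seen, and its part in the result was not tested. Both kinds of embryo occurred in each of the 4 conditions with single-embryo lists.

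tll, an orphan nuclear receptor of both poles, lies on the plus strand at chr3R:30852315-30854400. Its start site carried a pair of regions under 1 peak, and the strongest summit fell in either. tll -166 ranked from 653 to 20000 at stage 6 with a median of 1235, and at stage 5 it ranked 1396 in grhM-, 721 in grhM+, 2916 in grhM-Z- and 1302 in grhM+Z+. tll -361 ranked from 446 to 8921 at stage 6 and from 320 to 7286 at stage 5. Neither was called, with differences of 0.31 and -0.06. Of the 12 tested regions of tll, 3 were weaker, 1 was stronger and 8 were not called.

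All regions of tll that were weaker lay in a stretch upstream of the start site. tll -2232 was not ranked in any stage 6 condition, and at stage 5 it ranked 5189 in grhM-, 6393 in grhM+, 6383 in grhM-Z- and 11354 in grhM+Z+ (difference 1.51). The pair of Bcd strings in it lie 3 bases apart in opposite orientation. tll -2485 and tll -2798 differed by 0.38 and 0.56. The region that was stronger, tll +3278, ranked from 7201 to 11763 at stage 6 and was not ranked at stage 5 (difference -1.06). With ranks limited at 10000 it differed by -0.13 and was not called (adjusted p = 0.428, exact permutation). tll -6724, the strongest distal region over the early conditions, ranked from 6735 to 12399 at stage 6 and from 9275 to 17781 at stage 5, and was not called (difference -0.58).

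hkb, a zinc finger repressor of the poles that bounds the mesoderm, lies on the minus strand at chr3R:4345015-4346646. Of 11 tested regions 4 were weaker and 2 stronger. The start site, hkb -108, ranked from 262 to 769 at stage 6 with a median of 471, and at stage 5 it ranked 450 in grhM-, 552 in grhM+, 403 in grhM-Z- and 1156 in grhM+Z+. The stages overlapped (difference -0.37, not called).

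In an upstream block of hkb, hkb -1832 and hkb -1643 had the highest differences in the 6 windows under the rank limit, at which such losses are lower bounds. By fold the difference at Kr -3493 was higher, at 0.93 against 0.88 at hkb -1832. hkb -1832 was not ranked in any stage 6 condition, and at stage 5 it ranked 2151 in grhM-, 1278 in grhM+, 1801 in grhM-Z- and 2749 in grhM+Z+, a difference of 3.38 (0.88 by fold, still called). Its neighbours hkb -1643 and hkb -2006 differed by 3.23 and 2.73. The 3 regions overlap and made 1 peak of 629 bp (median width) at stage 5, so they are not separate elements in the lists. Summits in hkb -1832 were still listed in 6 of the 9 stage 6 lists, at a median rank of 31496 and a median fold enrichment of 2.15, against 2094 and 4.88 in the 8 stage 5 lists. Downstream, hkb +5296 ranked from 4662 to 9339 at stage 6 and was not ranked at stage 5 (difference -1.70), and hkb +6248 was stronger by 0.86 on the same scale. By fold hkb +5296 differed by -0.35 and was not called (adjusted p = 0.053, exact permutation). hkb +8906, at the start sites of CG1103 and Skp2, was not called.

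Motif strings were counted over the whole of each region as a description. Of the 22 regions weaker at stage 6, 11 held GGATTA (Bcd), beside 13.2% of all regions weaker at stage 6 and 8.47% of all regions tested. These 11 belong to 4 genes and make 8 separate stretches of DNA, since neighbouring regions share bases. TTTTATG (Cad) was in 8 of the 22, or 36.4%, beside 13.5% of all weaker regions and 10.5% of all tested. CAGGTAG (Zld) was in 5, or 22.7%, beside 18.4% and 6.11%. The 3 regions with TGAATGAA (Cic) were all in the hkb block named above.

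The 9 regions stronger at stage 6 held 0 Zld and 0 Cad strings, beside 2.35% and 8.99% of all regions stronger at stage 6, so that 0 of 9 is near the genome share. Of the 9, 4 held GAGAGAG (GAF), or 44.4%, beside 14.9% of all regions stronger at stage 6. Those 4 make 3 separate stretches at hb and kni. Of the strings of the gap proteins, CAAAAAA (Hb) was in 20 of the 67 regions tested, or 29.9%, the highest count of the 12 strings, beside 19.6% of all regions. AAGGGTT (Kr), TAGAGCA (Kni) and AAGTCAA (Tll) were in 5 each, or 7.46%, beside 2.53%, 2.53% and 4.97%. TTACGTAA (Gt) was in 1, or 1.49%, beside 0.256%. ACAAAGG (D) was in 11, or 16.4%, beside 5.54%. None of the 67 held a Grh string, which 2.35% of all regions tested did, while gt -6135 and tll +8692, which were not tested, held 1 each. The strings are single short words, and a match does not show a bound site.

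**Figure D2:**
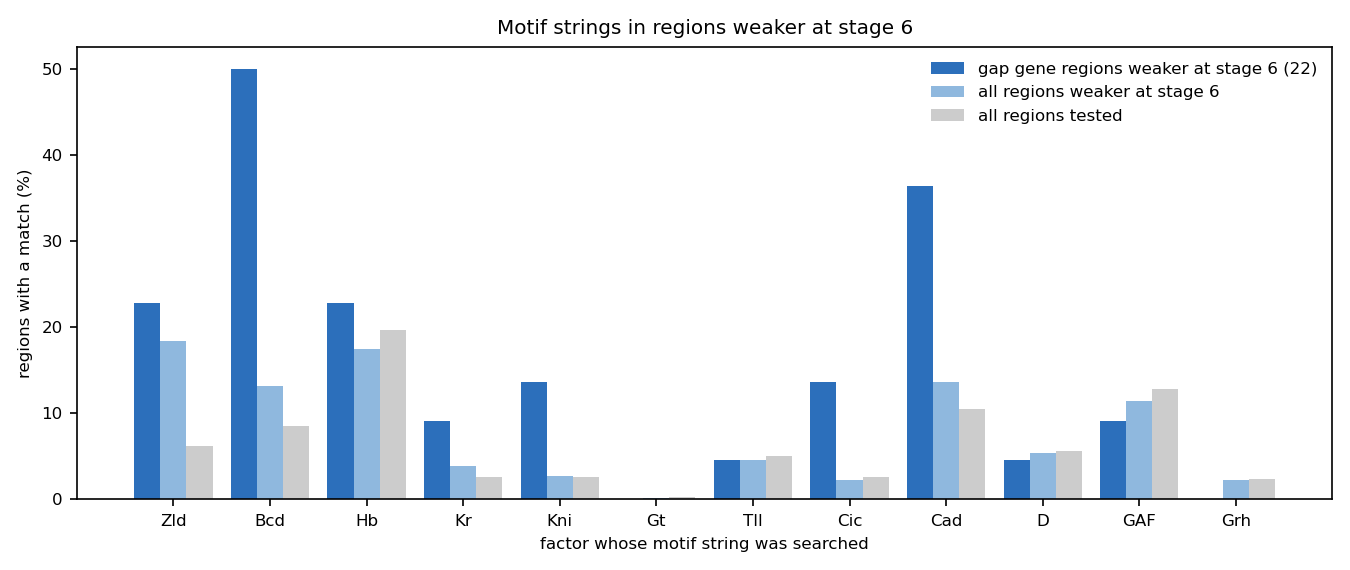
Share of regions with at least 1 match to the string of each factor, in percent, for the 22 gap gene regions weaker at stage 6, all regions weaker at stage 6 and all regions tested. The Bcd bar of the gap gene regions (11 of 22) is the tallest, their Cad bar stands at 36.4%, and their Grh bar is at 0.

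Of 10 other genes of the anterior-posterior system (knrl, oc, ems, btd, slp1, nub, pdm2, cad, fkh and D), 132 regions were tested in the same way. There were 15 stronger at stage 6, or 11.4%, and 28 weaker, or 21.2%. Of these genes cad, the gene of the posterior gradient, had 5 weaker regions of 10, while ems, a head gap gene, had 4 stronger of 10 and 1 weaker.

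Loss of Grh was compared with siblings first over 6 grhM-Z- and 5 grhM+Z+ embryos with a list each. Genotypes were permuted within stage (exact, two-sided, 200 arrangements, smallest p 0.005). No region was called of the 26955 tested, or 0%, and 986 had an unadjusted p under 0.05. With that smallest p, 2696 regions would have had to reach it for any call, and 141 did, so the 0 says little about single regions. Of the 67 gap gene regions 0 were called and 0 had an unadjusted p under 0.05. Their median difference was -0.03 on the log2 rank scale, against -0.01 over all regions, with 39 regions higher in rank in grhM-Z- embryos and 27 lower. The lowest p of the gap gene regions was 0.07 before adjustment (exact permutation) and 0.977 after it, at hkb -108.

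At that start site the grhM-Z- embryos ranked 246, 318 and 834 at stage 5, against 915, 1277 and 1321 in grhM+Z+ embryos. At stage 6 hkb -108 ranked 162, 226 and 926 in grhM-Z- embryos, against 352 and 1046 in grhM+Z+ embryos. The genotypes overlapped at stage 6 and not at stage 5. At Kr -92 the reverse held, with 320, 927 and 1444 in grhM-Z- and 652, 826 and 874 in grhM+Z+ embryos at stage 5, and 60, 135 and 248 in grhM-Z- against 545 and 755 in grhM+Z+ embryos at stage 6. Over both stages the difference at Kr -92 was -1.20, with an unadjusted p of 0.115 (exact permutation). Both start sites had p values among the lower ones of the gap gene regions. With so few embryos, genotypes often separate at a single stage without any true difference. How many regions of the genome separated in this way was not counted, so no effect of genotype is read from it.

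Both start sites of hb overlapped between the genotypes. At stage 6 hb -130 ranked 1880, 1903 and 3417 in grhM-Z- embryos and 1213 and 2031 in grhM+Z+ embryos. At stage 5 hb +3145 ranked 4100, 4682 and 6046 in grhM-Z- embryos and 2222, 2560 and 5964 in grhM+Z+ embryos. A difference under the spread of 3 embryos could not be detected.

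**Figure D3:**
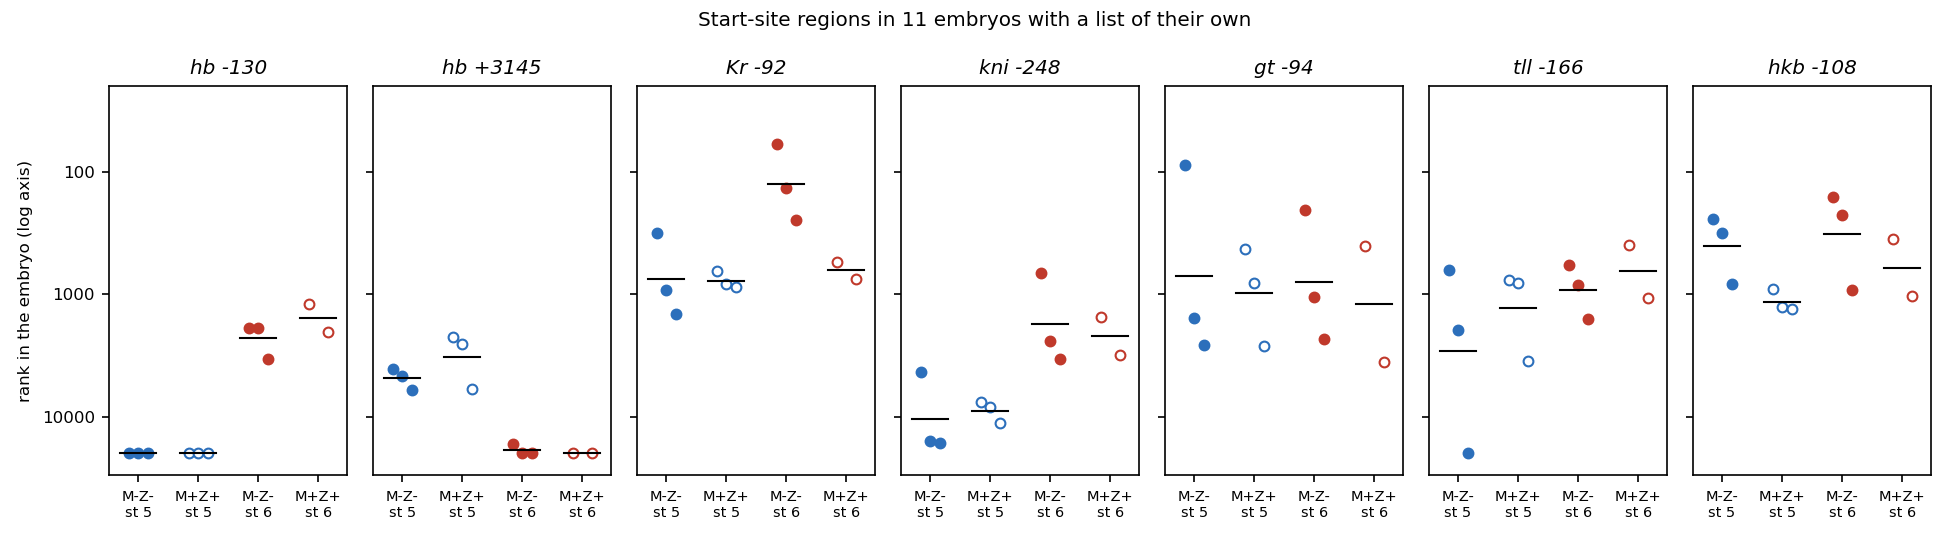
Rank (log axis, strongest at the top) of start-site regions in the 11 embryos with a list of their own. Filled points are grhM-Z- and open points grhM+Z+ embryos, blue at stage 5 and red at stage 6, and bars are geometric means. The change at hb -130 and hb +3145 between stages is seen in both genotypes.

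The other mutants were compared with their siblings list against list. Among 5 early pairs of conditions, between 52 and 65 of the 67 regions differed by no more than 1 on the log2 rank scale. The fewest, 52, were between grhM- and grhM+ at stage 5, where differences ran from -2.64 at Kr -92 to 2.64 at hb +3145. At stage 6 the same genotypes differed by -4.44 at tll -166 and 1.80 at tll -361, the neighbouring regions of 1 peak, and 62 regions lay within 1. In the sign-flip test over the 5 pairs no p under 0.05 is possible, and for the named regions the exact two-sided values lay at or above 0.125. The mean difference was -0.78 for Kr -92, -0.53 for hkb -108 and -0.37 for gt -94, each ranked higher in the mutant in 4 of 5 pairs. The other named start sites were mixed. At tll -166 the rank was lower in the mutant in 4 pairs and higher in 1. At kni -248 it was lower in 2 and higher in 3, and at hb -130 lower in 2 and higher in 1.

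**Figure D4:**
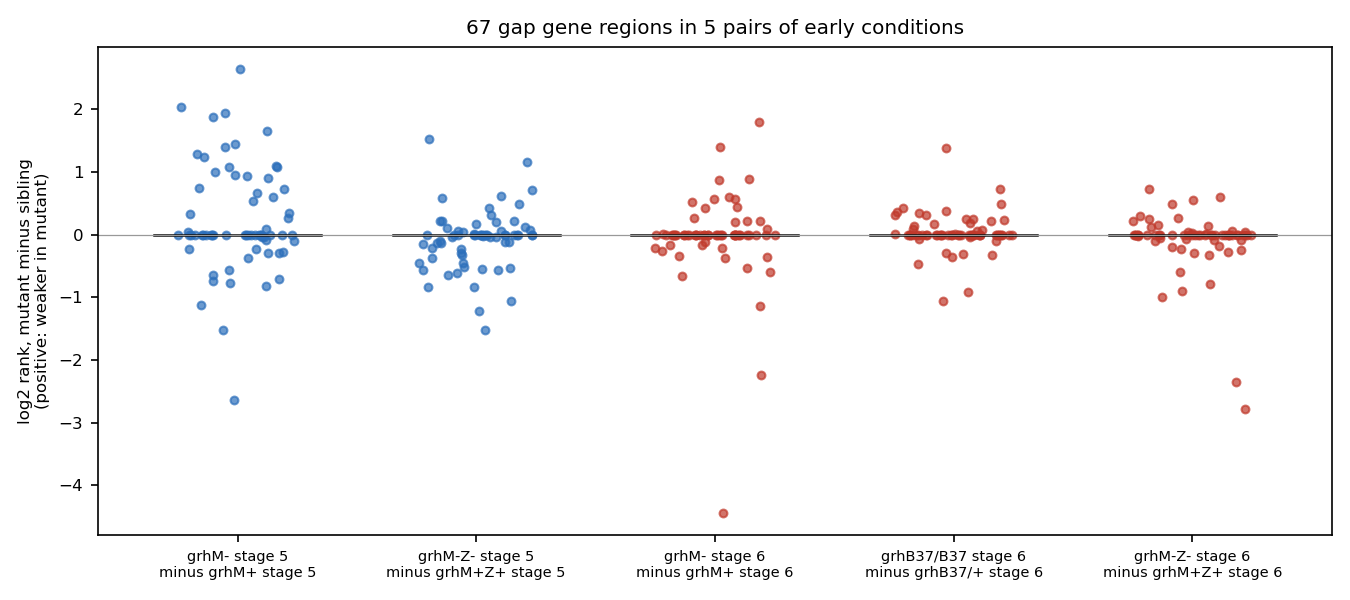
Log2 rank of the mutant minus that of its sibling for the 67 tested gap gene regions in 5 pairs of early conditions, with the median as a bar (0 in all 5, since many regions were not ranked in either list). The lowest point, -4.44 in the maternal pair at stage 6, is tll -166.

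A region among the strongest 5000 of a list was said to lack a counterpart when it was not among the strongest 15000 of the other. In 4 of the 5 early pairs no gap gene region that was strong in the mutant lacked a counterpart in the sibling. The shares over all regions were 3.25% for grhM-, 0.176% for grhM-Z- at stage 5, 1.05% for grhB37/B37 and 0.409% for grhM-Z- at stage 6. In the fifth, grhM- at stage 6, 1 of 12 lacked one, against 1.83% of all regions: tll -166, at 921 in grhM- and 20000 in grhM+. In grhM+ the summit of that peak lay at tll -361, at rank 446, so the peak itself was present in both. In the other direction 2 of 18 regions of grhM+ at stage 5 had no counterpart in grhM-, against 4.41%: hb +2965 at 4624 and Kr -269 at 4849 in grhM+, with 17780 and 20000 in grhM-. Both lie next to stronger regions at start sites that were present in grhM-. For the siblings of the other 4 pairs 0 gap gene regions lacked a counterpart, beside 0.259% for grhM+Z+ at stage 5 and 1.76%, 0.959% and 0.365% for grhM+, grhB37/+ and grhM+Z+ at stage 6.

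At 11-12 h the windows held fewer summits. There were 7 in grhB37/B37 and 22 in grhB37/+, beside 70 to 88 in the 8 stage 5 lists and 70 to 141 in the 9 stage 6 lists. As a share of each list this was 0.0583% and 0.0885% at 11-12 h, against 0.179% to 0.260% at stage 5 and 0.130% to 0.194% at stage 6. The late libraries were sequenced as single-end reads without selection of short fragments, so age and library type cannot be told apart. Less accessibility per cell and fewer cells with the region open cannot be told apart either, here or in the early embryos.

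Of the 10 gap gene regions among the strongest 5000 of grhB37/B37 at stage 6, 6 had no counterpart at 11-12 h, against 62.4% of all regions. They were Kr -7087, kni -90, kni +7487, gt -94, tll -361 and hkb -108. In grhB37/+ it was 4 of 10, against 43.6%: Kr -7087, kni -90, kni +7487 and tll -361. For kni -90 and tll -361 the neighbouring region at the same start site was still ranked. In the other direction 1 of 4 late regions of grhB37/B37 had no counterpart at stage 6, against 61.7% (hkb -3726, at 4916). The same was true of 1 of 5 in grhB37/+, against 49.6% (hb -7836, at 3299). These shares lay near those of the genome except for the late regions, of which there were too few to compare.

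Between the late genotypes 1 of 4 strong regions of grhB37/B37 lacked a counterpart in grhB37/+, against 19% of all regions, which was hkb -3726. In grhB37/+ it was 2 of 5, against 23.3%, namely hb -7836 and gt -94. gt -94 was not listed in grhB37/B37 and ranked 3106 in grhB37/+, where 50 fragments lay at its summit. hkb -108 was not listed in grhB37/B37 either and ranked 9248 in grhB37/+. By contrast tll -166 ranked higher in grhB37/B37, 5624 against 9732. The list of grhB37/B37 held 12001 summits and that of grhB37/+ 24857, and with 1 library of each genotype none of these differences has a replicate.

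**Figure D5:**
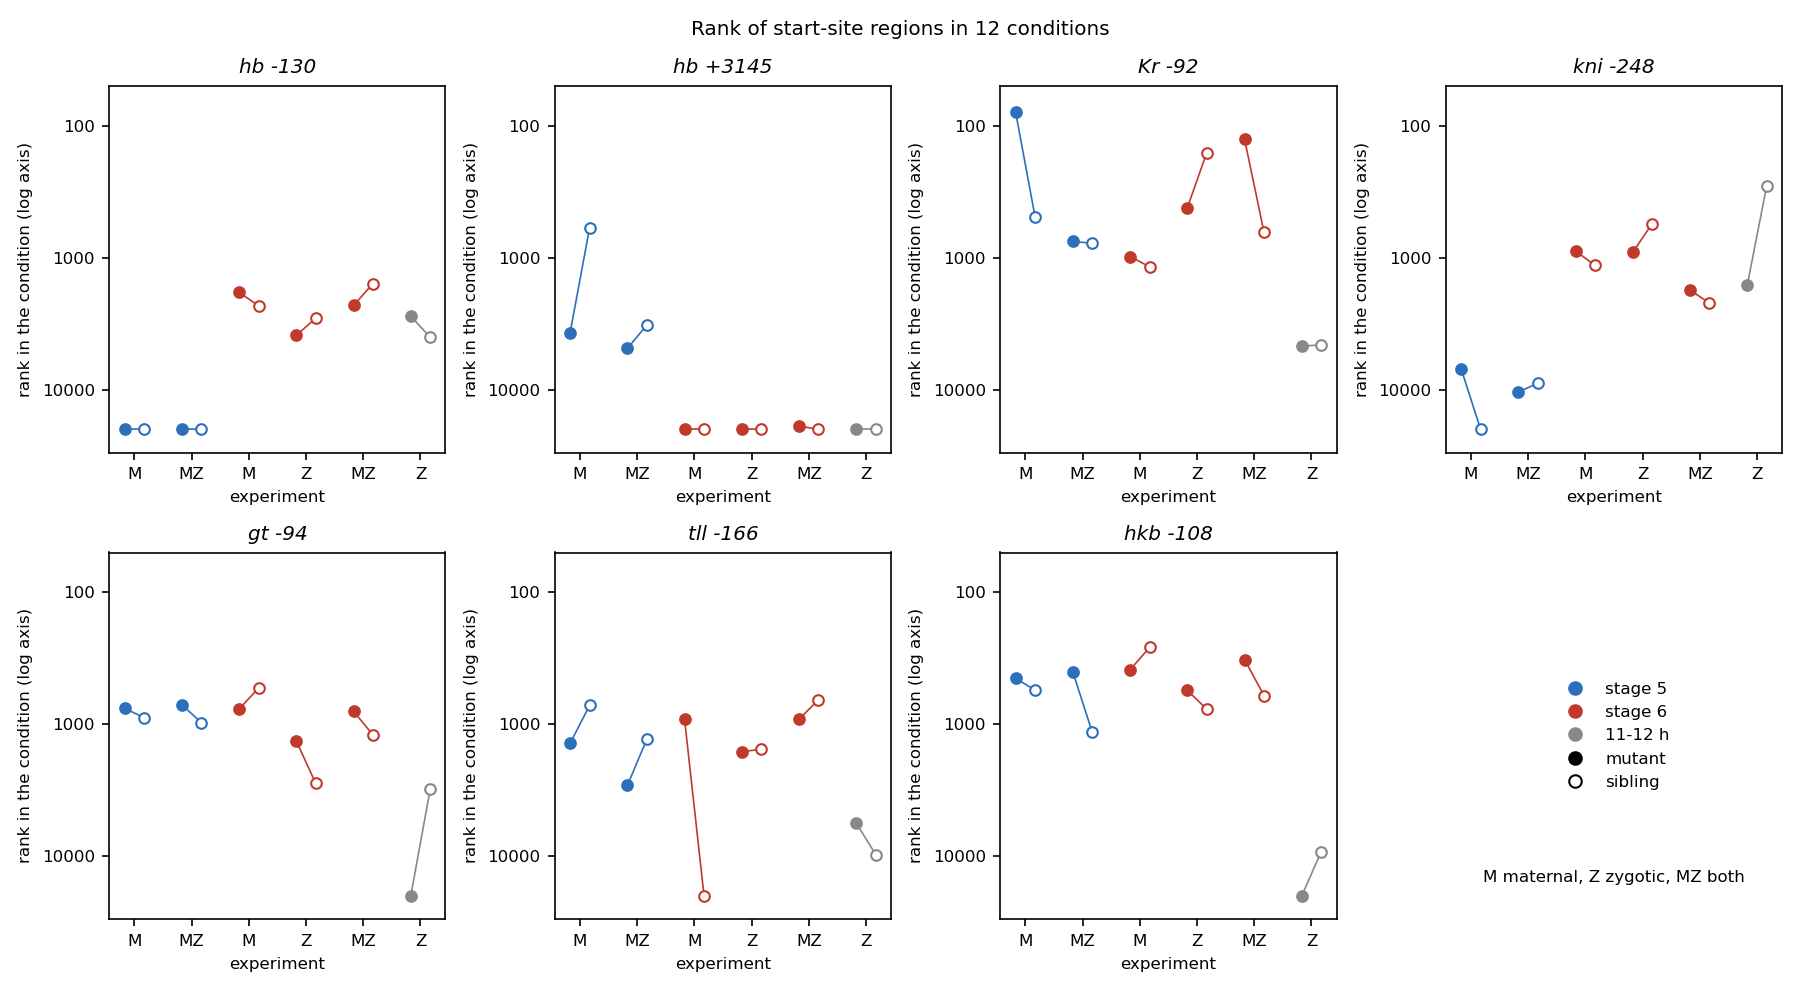
Rank (log axis, strongest at the top) of the start-site regions in the 12 conditions, with the mutant (filled) left of its sibling (open) and stage 5 in blue, stage 6 in red and 11-12 h in grey. M, Z and MZ are the maternal, zygotic and combined experiments. hb -130 and hb +3145 exchange places between the stages, kni -248 rises, and Kr -92, gt -94 and hkb -108 stay high until stage 6.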

How the data were processed

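ATAC-seq was done on single embryos at stages 5 and 6 and on pools at 11-12 h (31 libraries, 12 conditions). The authors used Trimmomatic 0.36 for trimming and Bowtie2 for mapping to dm6, kept short fragments of the early paired-end libraries, and took peaks from MACS2 (q-value limit 0.05). The deposited lists give a fold enrichment, a ratio over local background, and −log10 p and −log10 q of each summit. Fragments and background at a summit were solved from these values, and at least 99.97% of solved fragment counts lay within 0.05 of a whole number. Read counts per embryo were not used here.

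Summits were ranked within each list by −log10 q, and regions reaching 150 bp to either side were built around the strongest (rank limit 20000). Genes and start sites came from the Ensembl BDGP6.54 annotation, start-site regions lay within 500 bp of one, and sequence from the Release 6 assembly in RefSeq, whose chromosome lengths no peak exceeds. Permutation tests used Python 3.11.15, numpy 2.4.6, pandas 2.3.3 and scipy 1.17.1 and were tested on simulated data. They treat condition lists as exchangeable. Replicates were separate embryos.

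For each gene the named regions are the start-site region and the 3 distal regions with the best mean early rank, and the distal regions with the largest fall and rise. The members and lists were chosen with earlier results of these data known. Alternatives covered the ranking, limit, filter, window, region width and left-out lists.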

Additional observations from a re-analysis of the deposited data

Results flagged for a closer look

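Among the named regions, 52 groups of condition ranks were examined for a single value far from the others, of which chance would give about 1 in 20 in values without ties, and 5 were found. At stage 6, Kr -7087 ranked 197 in grhM-, while the other 5 conditions lay between 933 and 1417. At stage 5, kni +2701 ranked 15699 in grhM+ and was not ranked in the other 3 conditions, where any value off the limit would stand apart. At stage 5, tll -6724 ranked 9275 in grhM+, against 17076 to 17781 elsewhere. At stage 6, tll -166 was not ranked (20000) in grhM+ and lay between 653 and 1616 in the other 5, while the neighbouring tll -361 ranked 446 in grhM+. At stage 6, hkb -2006 had a mean rank of 19939 in grhM+Z+ and was not ranked in the other 5, so that it too stands apart only by the tie at 20000.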

How the results depend on the processing

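Against 31 regions called between the stages (22 weaker, 9 stronger), 13 were called when summits were ranked by fold (9 weaker, 4 stronger), 54 by joined peaks (35 and 19) and 16 with ranks limited at 10000 (10 weaker). Embryos with lists of their own gave 16 (7 weaker, 9 stronger), an alternative chosen after seeing the data. Without the zygotic experiment, with 4 lists against 4 and so fewer arrangements, 0 were called (0 weaker, 0 stronger). The differences at the start sites of hb and kni were then -3.34 and -2.92 (adjusted p = 0.106 for each, exact permutation). Leaving out 1 condition list gave 0 to 38 calls (0 to 28 weaker, 0 to 10 stronger), with differences of -3.23 to -2.97 at the hb and -3.46 to -2.95 at the kni start site. The 0 came from leaving out grhM-, grhM+ or grhM-Z- at stage 5, with fewer arrangements. Leaving out 1 embryo gave 29 to 33 calls (20 to 23 weaker, 9 to 10 stronger). By fold the hb start site differed by -1.15 and was no longer called. The hb and kni start sites also lost their calls in the settings with 0 calls, and otherwise no start-site call changed. Comparing grhM-Z- with grhM+Z+ gave 0 calls under every alternative run, which the few arrangements made near certain. Regions without a counterpart numbered 2 in mutant and 4 in sibling lists. With the strongest 2000 these were 1 and 0, and by overlap with a peak 1 and 2. At 11-12 h, 2 late regions and 10 at stage 6 lacked one. With the strongest 2000 there were 0 late regions, and by overlap 6 at stage 6. No paired analysis was possible because the lists name embryos without replicate numbers, and only whole condition lists were set in pairs.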
